A study of Mus musculus with 8 samples.

Results

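This report describes 9 ABC drug efflux transporters in 4T1 mouse breast tumors: Abcb1a, Abcb1b, Abcc1, Abcc2, Abcc3, Abcc4, Abcc5, Abcc10, and Abcg2. The members were chosen by name as transporters known to export drugs, and each matched a single row among the 54532 genes of the count table. Of the 9, 8 passed the low-count filter, as did 18511 genes in all. RNA-seq was performed on 4 tumors from saline-treated mice and 4 tumors from mice given mAb-DXd/IMQ, a humanized anti-CD276 antibody that carries both DXd, a topoisomerase I inhibitor, and IMQ, an imidazoquinoline that stimulates Toll-like receptors. Mice were 6-week-old female BALB/cJ animals injected subcutaneously with 4T1-FLuc cells, a luciferase-expressing line derived from a mouse mammary carcinoma. They received 16 mg/kg of mAb-DXd/IMQ in the tail vein every 4 days for 5 courses, or saline, which 1 field of the sample labels calls PBS. Tumors were harvested at the study endpoint, and no arm with the antibody alone, DXd alone, or IMQ alone was analyzed here. The paper reports that tumors of the mAb-DXd/IMQ group were by then far smaller on average than saline tumors. It also reports widespread death of cancer cells in their stained sections. The groups thus differed in tumor size and state, and the part of this in the values below was not tested.

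ABC transporters are membrane pumps that use ATP to move molecules across a membrane. Those that export drugs lower the amount of a cytotoxic compound inside a cell, and their overexpression is a well known route to multidrug resistance in cancer. P-glycoprotein, MRP1, and BCRP, encoded in mice by Abcb1a and Abcb1b, by Abcc1, and by Abcg2, are known to carry DXd. BCRP was first described in drug-resistant breast cancer cells and exports many camptothecin-type topoisomerase inhibitors.

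Each nucleotide-binding domain of an ABC protein carries a Walker A motif, the loop that holds the phosphates of ATP. The motif is a glycine, any 4 residues, another glycine, a lysine, and a serine or threonine, and it was searched for in frame in the coding sequence of the longest coding transcript of each member. Abcg2 had 1 match, and each of the other 8 members had 2 matches, as is known for a transporter that works as a dimer and for transporters that hold both domains in 1 chain. The stretches of 42 bases below are shown because they make this difference visible and because they show how alike the P-glycoprotein genes are. Capitals mark the codons of the motif, and the sequences come from the GENCODE M21 transcripts of the coding strand.
Abcg2, only match: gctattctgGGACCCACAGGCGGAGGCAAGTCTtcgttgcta
Abcb1a, first match: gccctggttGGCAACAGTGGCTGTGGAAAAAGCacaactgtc
Abcb1b, first match: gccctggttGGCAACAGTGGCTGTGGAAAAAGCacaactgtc
Abcb1a, second match: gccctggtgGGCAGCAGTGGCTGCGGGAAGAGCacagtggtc
Abcb1b, second match: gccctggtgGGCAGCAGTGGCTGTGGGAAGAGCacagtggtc
Abcc3, first match: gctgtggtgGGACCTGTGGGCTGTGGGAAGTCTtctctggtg
Abcc3, second match: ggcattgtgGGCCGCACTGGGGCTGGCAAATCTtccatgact
The first stretch was identical in Abcb1a and Abcb1b, at coding bases 1258 to 1299 of Abcb1a and 1267 to 1308 of Abcb1b. Over their whole coding sequences of 3828 bases each, the pair was 88.1% identical, and the longest run they shared was 338 bases. Reads that lie wholly inside such a run cannot be assigned to either gene. Of all 100-base windows of the longest coding transcript, 92.3% in Abcb1a and 91.3% in Abcb1b occurred in no transcript of another gene, as did 100% in the other 7 members.

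Total counts lay between 34591912 and 69582375 per tumor. In all, 197 genes passed the thresholds in edgeR's quasi-likelihood test, namely an FDR below 0.05 and a log2 fold change beyond 0.58 in either direction, a 1.5-fold change. Of these 197, 101 were higher and 96 lower in mAb-DXd/IMQ tumors. Upper quartile scaling gave a split of 145 higher and 73 lower, and a correction for gene length a split of 74 and 46. The median log2 fold change over all genes was 0.022 and stayed under 0.1 with every scaling tried. The carcinoma keratins were present in every tumor, with Krt8 at 611 to 698 CPM in the saline group and 493 to 887 CPM in the mAb-DXd/IMQ group, where CPM stands for counts per 1e06 counts after scaling between libraries. Of the receptors whose absence defines triple-negative cancer, Pgr was at 0.161 to 0.808 CPM and Esr1 at 13.6 to 20.6 CPM, while Erbb2 was at 74.3 to 118 CPM. Transcripts of the last pair were thus present in these tumors, host cells included. Receptor protein was not measured here, so these values do not test the triple-negative label, which is the submitters'. These were bulk tumors in an immunocompetent host of the same species, so carcinoma and host transcripts were counted together, and fewer cells of a type cannot be told apart from less RNA per cell.

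No member passed the thresholds by edgeR's quasi-likelihood test, against 1.06% of all tested genes, 0.546% higher and 0.519% lower. None passed by FDR alone either, against 1.33%. Abcg2 was higher in mAb-DXd/IMQ tumors without overlap between the groups, but its adjusted p of 0.0695 missed the FDR threshold. It was the single member with an unadjusted p under 0.05, a level that 18.9% of all tested genes reached. Abcc1 and Abcc5 also reached it after the correction for gene length and without mAb-DXd/IMQ tumor 1, and Abcc1 without saline tumor 1. DESeq2, run as an alternative, called 1 member, Abcg2, and limma-voom called none, beside 4.43% and 0.94% of all genes that these tools gave an adjusted p. DESeq2 called 2.46% of those genes higher. The median log2 fold change of the 8 tested members was 0.06, beside 0.022 over all tested genes, with 4 members above 0 and 4 below, as were 52.6% and 47.4% of all tested genes. With upper quartile scaling, and likewise after the correction for gene length, 7 of the 8 were above 0, with medians of 0.11 and 0.13, beside 0.069 and 0.028 over all tested genes. When 1 tumor was left out the median ran from 0.04, without saline tumor 3, to 0.17, without mAb-DXd/IMQ tumor 2.

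Abcg2, at chr6:58584523-58695676 on the plus strand (ENSMUSG00000029802, GRCm38), encodes BCRP. It was at 9.31, 8.12, 10.03, and 7.49 CPM in the 4 saline tumors and at 19.1, 12.3, 14.4, and 12.5 CPM in the 4 mAb-DXd/IMQ tumors. Every treated tumor was above every saline tumor, as was true of 5.97% of all tested genes, and mAb-DXd/IMQ tumor 1 was the highest. These levels rested on 360 to 560 counts per saline tumor and 445 to 924 counts per treated tumor. The fold was 1.67 with a 95% interval of 1.26 to 2.21, a log2 fold change of 0.74 (SE 0.18, edgeR, unadjusted p = 0.00208, adjusted p = 0.0695). Abcg2 ranked 553rd by p among the genes tested. The log2 fold change was positive in 20 of 20 alternative settings, from 0.58 to 0.88, and past the thresholds in 1 of them, DESeq2, with an adjusted p of 0.00488. With each tumor left out in turn it lay between 0.58, without mAb-DXd/IMQ tumor 1, and 0.81, and edgeR's adjusted p between 0.0885 and 0.208.

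**Figure D1:**
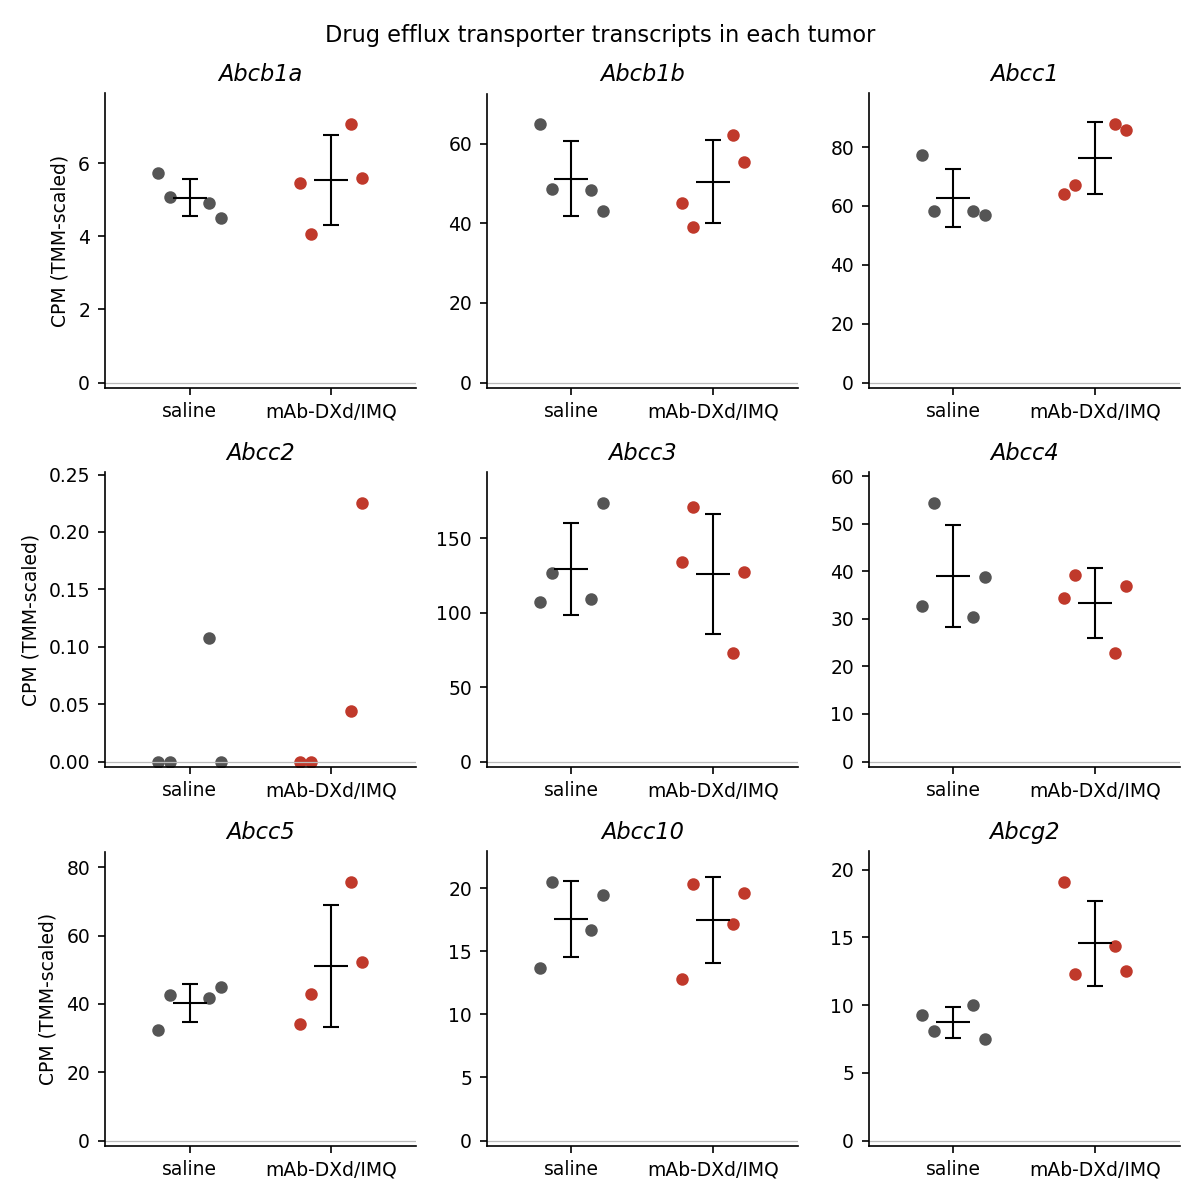
CPM of each transporter in each tumor, on a linear axis per gene from 0, for saline (gray) and mAb-DXd/IMQ (red). Points are single tumors in replicate order from left to right, bars the mean ± SD of 4 tumors, not drawn for Abcc2, which had no counts in 5 tumors. The groups overlap in every panel except Abcg2, where saline tumors reach 10.03 CPM and mAb-DXd/IMQ tumors start at 12.3 CPM.

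Markers of cell types in which BCRP is known to be expressed were also measured. The summed level of 12 endothelial markers was 269 to 476 CPM in saline tumors and 470 to 556 CPM in mAb-DXd/IMQ tumors. All 12 had a positive log2 fold change, with a median of 0.46 and an unadjusted p under 0.05 for 5, beside 9.13% of all tested genes in that direction, but none passed the thresholds. The 5 became 3 without mAb-DXd/IMQ tumor 1. Plvap, named after its values were seen, averaged 35.0 ± 9.52 CPM without and 54.3 ± 6.22 CPM with treatment (SD, n = 4 each), without overlap. None of the 12 was at 0 in all tumors. The summed level of 7 erythroid markers was 17.5 to 53.2 CPM in saline and 36.3 to 79.8 CPM in treated tumors. That of 10 carcinoma epithelial markers was 2110 to 2915 CPM in saline and 2404 to 4171 CPM in treated tumors. Both of these sums were highest in mAb-DXd/IMQ tumor 1, the tumor with the highest Abcg2. The carcinoma sum was the lowest of the treated group, 2404 CPM, in mAb-DXd/IMQ tumor 3, which had the next highest Abcg2, 14.4 CPM. The part of these cells in the level of Abcg2 was not tested.

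The P-glycoprotein genes lie next to each other on chromosome 5 and were at similar levels in both groups. Abcb1b, at chr5:8798147-8866315, was at 64.8, 48.5, 48.4, and 43.1 CPM in saline tumors and at 45.0, 39.0, 62.3, and 55.4 CPM in mAb-DXd/IMQ tumors. Saline tumor 1 and mAb-DXd/IMQ tumor 3 were the highest of their groups, and the groups overlapped over most of their ranges. The fold was 0.98 with a 95% interval of 0.76 to 1.27 (edgeR, adjusted p = 0.962), and its direction changed with the setting. Abcb1a, at chr5:8660077-8748575, was at 5.72, 5.08, 4.91, and 4.51 CPM in saline tumors and at 5.45, 4.07, 7.05, and 5.59 CPM in mAb-DXd/IMQ tumors. The fold was 1.10 with a 95% interval of 0.80 to 1.51 (edgeR, adjusted p = 0.782). Per kilobase of gene length, Abcb1b was 6.55 to 7.78 times as high as Abcb1a in saline tumors and 5.67 to 6.79 times in mAb-DXd/IMQ tumors, or 9.59 to 13.2 times when the longest coding transcript was used as the length. Abcb1a and Abcb1b are both plus-strand genes, and the antisense gene Gm5106 that overlaps exons of Abcb1b held 0.393% as many counts as Abcb1b.

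Abcc1 encodes MRP1, which exports glutathione and glucuronide conjugates and carries leukotrienes out of cells. It lies at chr16:14361558-14475737 on the plus strand. Abcc1 was at 77.3, 58.2, 58.2, and 56.9 CPM in saline tumors and at 64.1, 67.2, 87.7, and 85.7 CPM in mAb-DXd/IMQ tumors. Saline tumor 1 stood above the other 3 saline tumors and inside the range of the treated tumors, so the groups overlapped through that tumor. The fold was 1.22 with a 95% interval of 0.97 to 1.51, a log2 fold change of 0.28 (SE 0.14, edgeR, unadjusted p = 0.0777, adjusted p = 0.322). The log2 fold change was 0.40 without saline tumor 1 (edgeR, unadjusted p = 0.0156, adjusted p = 0.159) and 0.43 after the correction for gene length (edgeR, unadjusted p = 0.00802, adjusted p = 0.137). Without mAb-DXd/IMQ tumor 3 it was 0.21 (edgeR, unadjusted p = 0.195, adjusted p = 0.508), the lowest of the alternatives. It was positive in 20 of 20 alternative settings and passed the thresholds in none.

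Abcc3 encodes MRP3, a pump of the basolateral membrane that carries bile acids and glucuronides. It lies at chr11:94343295-94392997 on the minus strand. Abcc3 had the most counts of the members in each group's total, but Abcc1 and Abcc5 had more in mAb-DXd/IMQ tumor 3. Abcc3 was at 107, 127, 109, and 173 CPM in saline tumors and at 134, 171, 73.0, and 127 CPM in mAb-DXd/IMQ tumors. The highest saline tumor and the highest treated tumor were nearly level, and mAb-DXd/IMQ tumor 3 was the lowest of all 8. The fold was 0.98 with a 95% interval of 0.68 to 1.40 (edgeR, adjusted p = 0.959), and its direction changed when either saline tumor 4 or mAb-DXd/IMQ tumor 3 was left out.

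Abcc4 and Abcc5 encode MRP4 and MRP5, which export cyclic nucleotides and nucleotide analogs. MRP4 also carries prostaglandins. Abcc4, at chr14:118482692-118706219 on the minus strand, was at 32.8, 54.3, 30.4, and 38.9 CPM in saline tumors and at 34.3, 39.3, 22.8, and 37.0 CPM in mAb-DXd/IMQ tumors. Saline tumor 2 was the highest and mAb-DXd/IMQ tumor 3 the lowest. The fold was 0.85 with a 95% interval of 0.62 to 1.17 (edgeR, adjusted p = 0.592), and the log2 fold change was negative in 20 of 20 alternative settings, from -0.34 to -0.03, the latter without saline tumor 2. Abcc5, at chr16:20331303-20426394 on the minus strand, was at 32.3, 42.5, 41.7, and 45.1 CPM in saline tumors and at 34.1, 42.8, 75.5, and 52.2 CPM in mAb-DXd/IMQ tumors. The treated group was spread widely, with mAb-DXd/IMQ tumor 3 above all other tumors. The fold was 1.27 with a 95% interval of 0.91 to 1.76, a log2 fold change of 0.34 (SE 0.21, edgeR, adjusted p = 0.425). Without mAb-DXd/IMQ tumor 3 the log2 fold change was 0.09, and without mAb-DXd/IMQ tumor 1 it was 0.49 (edgeR, adjusted p = 0.825 and 0.185).

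Abcc10 encodes MRP7, which is known to carry taxanes and other natural product drugs. It lies at chr17:46303221-46328352 on the minus strand. Abcc10 was at 13.7, 20.4, 16.7, and 19.4 CPM in saline tumors and at 12.8, 20.3, 17.2, and 19.6 CPM in mAb-DXd/IMQ tumors. The ranges of the groups nearly coincided. The fold was 0.99 with a 95% interval of 0.75 to 1.31 (edgeR, adjusted p = 0.987). Exons of Abcc10 overlap those of Dlk2 on the opposite strand, and Dlk2 held 13.2% as many counts as Abcc10, and whether counting used strand is not stated, so reads from the shared exons may not be told apart.

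Abcc2 encodes MRP2, the pump of the apical membrane that secretes conjugated bilirubin in liver, and was barely detected. It lies at chr19:43782192-43840740 on the plus strand. Its counts were 0, 0, 6, and 0 in saline tumors and 0, 0, 2, and 8 in mAb-DXd/IMQ tumors, so it did not pass the low-count filter and was tested only in the alternative without that filter, where no member passed the thresholds. A count of 0 allows up to 3 counts, which were 0.0439 to 0.0677 CPM in the 5 tumors without counts. This limit covers counting error only. The 6 counts of saline tumor 3 were 0.107 CPM and the 8 counts of mAb-DXd/IMQ tumor 4 were 0.225 CPM, and a difference between the groups was not detectable at this depth.

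**Figure D2:**
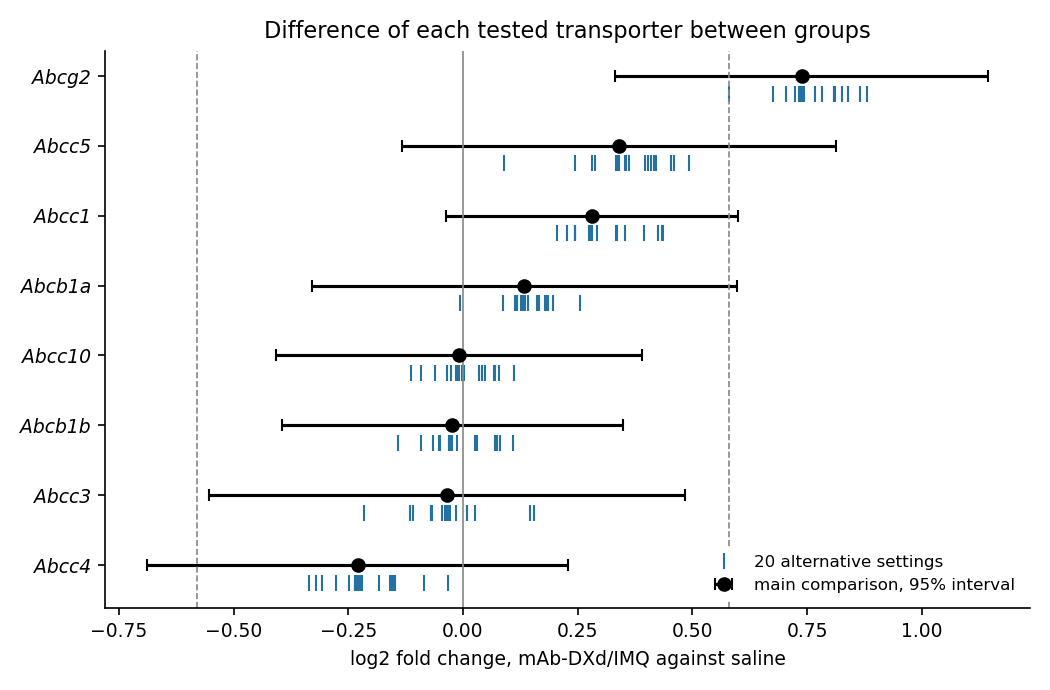
Log2 fold change of mAb-DXd/IMQ against saline tumors for the 8 tested transporters, with 95% intervals (black) and the values under 20 alternative settings (blue ticks). The solid line marks no difference and the dashed lines a log2 fold change of 0.58 in either direction. The interval of Abcg2, from 0.33 to 1.14, is the single one that leaves out 0.

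For Abcb1b, Abcc3, and Abcc10 the 95% intervals lay within a log2 fold change of 0.58 on both sides. Those of Abcb1a, Abcc1, and Abcc5 reached up to 0.60, 0.60, and 0.81, and that of Abcc4 reached down to -0.69. An adjusted p above the threshold does not show that the groups were equal, and the 4 tumors per group limit the precision. Nothing in the labels says whether tumors were processed together, and p-values measure the spread between these mice.

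Levels were compared between transporters only per length, as RPKM, the scaled CPM divided by the kilobases of all exons of the gene. Averaged over the 8 tumors, Abcc3 was the highest at 22.4 ± 5.83 RPKM (SD, n = 8), followed by Abcb1b at 6.36 ± 1.15, Abcc4 at 5.67 ± 1.42, Abcc1 at 4.599 ± 0.83, Abcc5 at 4.29 ± 1.27, Abcc10 at 2.55 ± 0.43, Abcg2 at 1.43 ± 0.47, Abcb1a at 0.97 ± 0.16, and Abcc2 at 0.0055 ± 0.0095 RPKM. Abcc3 was above Abcb1b in 8 of 8 tumors, by 3.52-fold on average, with no overlap of their ranges. With the longest coding transcript as the length it was also above in 8 of 8, but by 2.16-fold, and the ranges overlapped. The neighbors Abcb1b, Abcc4, Abcc1, and Abcc5 overlapped in their ranges, and Abcb1b was above Abcc4 in 5 of 8 tumors and Abcc1 above Abcc5 in 4 of 8. Abcc5 was above Abcc10 in 8 of 8 tumors with no overlap. Abcg2 was above Abcb1a in 8 of 8 tumors, although their ranges overlapped.

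The order of the means was the same in both groups. The middle of the order and the distances between members depended on the gene length used, since the summed exons of Abcc1, Abcb1b, and Abcc5 are 2.22, 1.86, and 1.84 times as long as their longest coding transcript. With that transcript as the length, Abcc1 was at 10.2 RPKM and Abcc5 at 7.88 RPKM, both above Abcc4 at 6.34 RPKM, while Abcc3 stayed first at 25.5 RPKM and Abcb1b second at 11.8 RPKM. Abcg2 and Abcb1a held positions 7 and 8 with either length.

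Of the summed RPKM of the 9 members, Abcc3 made up 42.4 to 55.9% in the saline group and 30.1 to 54.8% in the mAb-DXd/IMQ group, with means of 47.1 ± 5.97% and 44.6 ± 10.7% (SD, n = 4 each). The summed RPKM was 42.3 to 54.5 in saline and 42.6 to 54.7 in treated tumors, so the groups covered nearly the same range. Abcg2 made up 1.69 to 2.91% of the sum in saline tumors and 2.77 to 4.96% in treated tumors, a small overlap. It was the least abundant of the tested members but for Abcb1a.

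**Figure D3:**
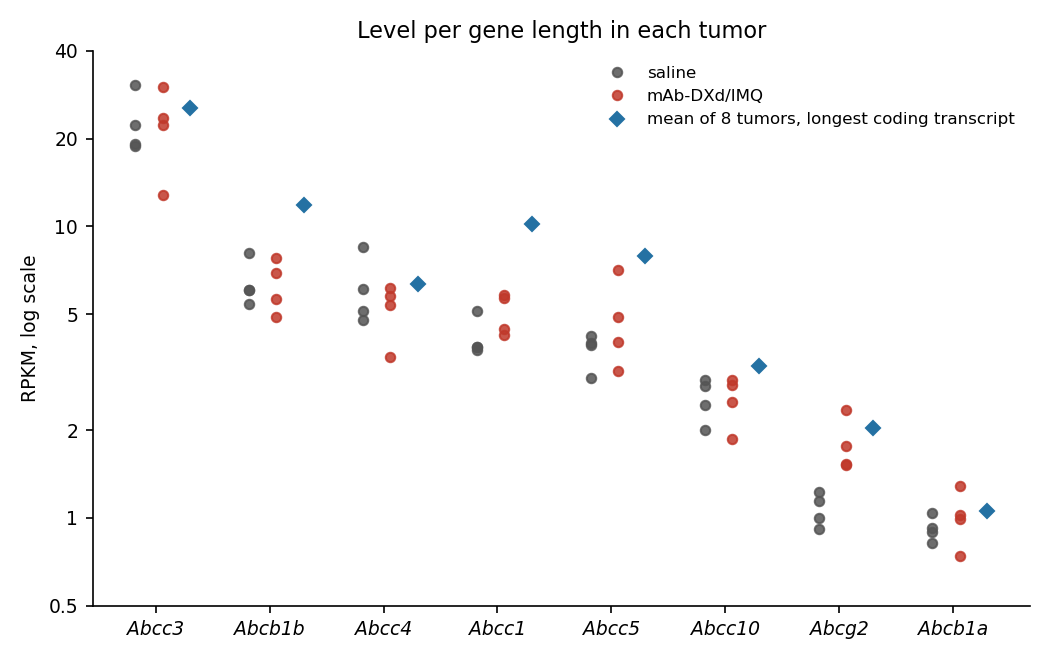
RPKM of 8 transporters in each tumor on a log axis, ordered by their mean, for saline (gray) and mAb-DXd/IMQ (red), with the mean of 8 tumors when the longest coding transcript is taken as gene length (blue diamonds). Abcc2 is left out, since a log axis cannot show its values of 0. Abcc3 lies above all others in every tumor, and the diamonds of Abcb1b, Abcc1, and Abcc5 lie above their points.

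Transporters differed in how much they varied between tumors. The SD of log2 CPM over the 8 tumors was 0.45 for Abcg2, 0.40 for Abcc3, and 0.38 for Abcc5, and it was lowest for Abcb1a at 0.24. For these 3 most variable members, the genes with the nearest profile were found among 14645 tested genes by the root mean square distance of centered log2 CPM over the 8 tumors. Nearest to Abcg2 were Stk39 at a distance of 0.083, Trip13 at 0.097, and Phlda3 at 0.12. Stk39, a kinase that regulates ion cotransporters, was at 27.8 to 37.3 CPM in saline tumors and 44.8 to 65.2 CPM in treated tumors, and it passed the thresholds with a log2 fold change of 0.67 (SE 0.14, edgeR, adjusted p = 0.04995), although not with limma-voom, after the correction for gene length, or without any 1 of the 8 tumors (adjusted p from 0.0569 to 0.156). Trip13, an ATPase of the mitotic checkpoint, was at 17.9 to 22.2 CPM in saline and 26.5 to 38.2 CPM in treated tumors (edgeR, adjusted p = 0.0544). Phlda3, a p53 target that restrains AKT, was at 17.0 to 21.8 CPM in saline and 25.1 to 40.4 CPM in treated tumors (edgeR, adjusted p = 0.0518). All 3 were highest in mAb-DXd/IMQ tumor 1, as was Abcg2. These genes were picked for their profile, so their differences between groups are no support for that of Abcg2.

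**Figure D4:**
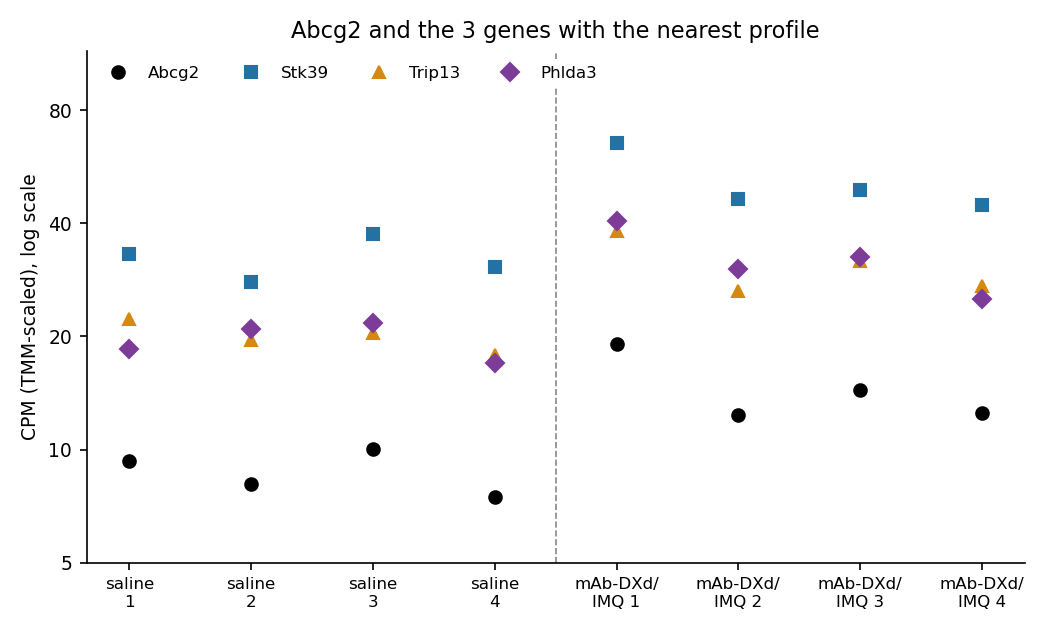
CPM of Abcg2, Stk39, Trip13, and Phlda3 in each of the 8 tumors on a log axis, saline left and mAb-DXd/IMQ right of the dashed line. For each gene the treated tumors lie above the saline tumors, with Abcg2 at 7.49 to 10.03 CPM on the left and 12.3 to 19.1 CPM on the right.

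Among the genes nearest to Abcc3 were Phlda1 at a distance of 0.15 and Sdr42e1 at 0.17, both with overlapping groups. Phlda1 was at 42.0 to 64.0 CPM in saline and 31.9 to 59.1 CPM in treated tumors and shared with Abcc3 its highest level in saline tumor 4 and its lowest in mAb-DXd/IMQ tumor 3. Nearest to Abcc5 were Adcy3 at 0.075, Gm14221 at 0.11, and Setd4 at 0.12. Adcy3, an adenylyl cyclase, was at 16.3 to 24.1 CPM in saline and 16.01 to 34.3 CPM in treated tumors, and mAb-DXd/IMQ tumor 3 was its highest, as for Abcc5.

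Of the 43 other ABC genes on the lists, 30 were tested and none passed the thresholds by edgeR. Their median log2 fold change was -0.01, with 6 of 30 at an unadjusted p under 0.05, near the 18.9% of all tested genes. DESeq2 called 3 of them, Abca1, Abcb9, and Abcd2, all lower, beside 1.96% of all genes in that direction, and limma-voom called none. Non-overlapping groups were found for 5, all lower in treated tumors, among 30 genes, beside 7.1% of all tested genes. Of the 13 tested genes of lipid and sterol transport, 5 had a positive and 8 a negative log2 fold change. Without mAb-DXd/IMQ tumor 1, when 15 were tested, the balance turned to 10 positive and 5 negative. Abca1, which loads cholesterol onto lipoproteins, was at 77.2, 147, 95.7, and 96.7 CPM in saline tumors and at 58.9, 71.8, 71.0, and 69.4 CPM in treated tumors. Every treated tumor was below every saline tumor, with a log2 fold change of -0.62 (SE 0.18, edgeR, adjusted p = 0.0988). Without saline tumor 2 it was -0.41 (edgeR, adjusted p = 0.163). The summed level of 10 macrophage markers was also highest in saline tumor 2, at 6366 CPM against 1232 to 3513 CPM in the other saline tumors and 2492 to 3624 CPM in treated tumors, and its part in the level of Abca1 was not tested. Abca3, a phospholipid transporter, had a log2 fold change of -0.20 (edgeR, adjusted p = 0.354).

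Of the 11 genes of peptide, mitochondrial, and lysosomal transport, 4 had a positive and 7 a negative log2 fold change, with a median of -0.03. Abcd3, a peroxisomal fatty acid transporter, was at 65.5 to 70.4 CPM in saline and 43.4 to 56.3 CPM in treated tumors (log2 fold change -0.42, edgeR, adjusted p = 0.0715). Tap1 and Tap2, which feed peptides to MHC class I and were looked at after their values were seen, had log2 fold changes of 0.08 and 0.19 (edgeR, adjusted p = 0.874 and 0.592).

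Of the remaining C, B, and G subfamily genes, 2 of 6 were tested. Abcc9, a subunit of potassium channels, was at 3.59 to 8.53 CPM in saline and 7.56 to 11.1 CPM in treated tumors (log2 fold change 0.61, edgeR, adjusted p = 0.227). The summed level of 6 pericyte markers was 66.7 to 139 CPM in saline and 118 to 210 CPM in treated tumors, and its part in the level of Abcc9 was not tested. Abcg3, a rodent relative of Abcg2, was at 1.38 to 9.34 CPM in saline and 3.28 to 10.1 CPM in treated tumors (log2 fold change 0.13, edgeR, adjusted p = 0.922). Abcb5 was at 0 counts in all 8 tumors, which allows up to 0.0843 CPM. The 4 ABC proteins without membrane domain, which act on ribosomes, had overlapping groups, 2 with a positive and 2 with a negative log2 fold change. Abcf1 was at 128 ± 3.45 CPM (SD, n = 4) and 134 ± 12.9 CPM (SD, n = 4), and Abcf2 at 65.3 ± 3.89 and 69.7 ± 10.9 CPM in saline and treated tumors (edgeR, adjusted p = 0.767 and 0.732). The 95% interval of the log2 fold change of Abcf2 ran from -0.18 to 0.37, and its value was 0.20 without mAb-DXd/IMQ tumor 4 (edgeR, adjusted p = 0.376).

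Transcription of efflux pumps is known to be driven by NRF2, a transcription factor of the response to oxidative and electrophilic stress, by the xenobiotic receptors AHR, PXR, and CAR, and by general factors such as SP1. Across the 5 lists of regulators, conjugating enzymes, and partners, 78 genes were tested, 1 passed the thresholds, and it was lower. Unadjusted p was under 0.05 for 28 lower and 4 higher genes, beside 9.79% and 9.13% of all tested genes. Of the 21 tested regulators, 16 had a negative log2 fold change, with a median of -0.20, and 7 had non-overlapping groups, all lower, beside 7.1% of all tested genes. No regulator passed the thresholds by edgeR, with an unadjusted p under 0.05 for 10, all lower. This count was 4 without saline tumor 2 or without mAb-DXd/IMQ tumor 4, 5 after the correction for gene length, and 3 with that correction and the replicate block. DESeq2 called 1 regulator, Ahr, which was lower, beside that 1.96%, and limma-voom called no gene of the 5 lists.

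Sp1 was at 131, 131, 122, and 119 CPM in saline tumors and at 90.8, 97.1, 90.7, and 85.1 CPM in treated tumors. The groups did not overlap, and the log2 fold change of -0.47 (SE 0.093, edgeR, adjusted p = 0.0409) passed the FDR threshold but not the fold limit. The FDR call was lost after the correction for gene length (edgeR, adjusted p = 0.0794), with the replicate block (adjusted p = 0.117), and when any tumor but mAb-DXd/IMQ tumor 1 was omitted, with edgeR's adjusted p between 0.0432, without that tumor, and 0.133. Ahr was at 110, 181, 131, and 182 CPM in saline tumors and at 79.4, 103, 91.9, and 82.1 CPM in treated tumors, without overlap (log2 fold change -0.76, SE 0.17, edgeR, adjusted p = 0.0538). It passed the thresholds without a low-count filter, with a filter of at least 1 CPM in 4 tumors, with DESeq2, and without saline tumor 1 (adjusted p = 0.0237, 0.0498, 0.00222, and 0.0295). Nr1i2 and Nr1i3, which encode PXR and CAR and were looked at after their values were seen, averaged at most 0.016 CPM in either group.

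NRF2 target genes were mostly lower in treated tumors. Of 17, 16 had a negative log2 fold change, as did 16 in each of 20 alternative settings. In edgeR's test, 10 had an unadjusted p under 0.05, 7 had non-overlapping groups, and 1 passed the thresholds, all lower, beside 9.79%, 7.1%, and 0.519% of all tested genes. The 10 became 7 without mAb-DXd/IMQ tumor 4 and 16 without mAb-DXd/IMQ tumor 1. DESeq2 called Fth1, G6pdx, Nqo1, and Srxn1, all lower, beside 1.96% of all genes in that direction. Fth1 also passed the thresholds without mAb-DXd/IMQ tumor 1 (log2 fold change -0.99, edgeR, adjusted p = 0.0465). The median log2 fold change was -0.40, beside 0.022 over all tested genes, and between -0.48 and -0.29 over the alternatives. Srxn1, the sulfiredoxin that repairs oxidized peroxiredoxins, was the gene past the thresholds in edgeR's test of all tumors. It was at 48.2, 46.6, 42.5, and 39.9 CPM in saline tumors and at 32.0, 33.7, 26.2, and 26.1 CPM in treated tumors, a log2 fold change of -0.59 (SE 0.12, edgeR, adjusted p = 0.0458). This lies at both thresholds, and limma-voom and upper quartile scaling put it outside them (adjusted p = 0.0521 for limma-voom, log2 fold change -0.54 for upper quartile scaling). The replicate block also ended the call (edgeR, adjusted p = 0.0915). With each tumor left out in turn, edgeR's adjusted p lay between 0.0496, without mAb-DXd/IMQ tumor 1, and 0.126. Gclc, the catalytic subunit of the first enzyme of glutathione synthesis, was named after its values were seen and had a log2 fold change of -0.56 (edgeR, adjusted p = 0.0277), inside the fold limit. Nfe2l2 and Keap1, which encode NRF2 and its inhibitor and were also named afterwards, had log2 fold changes of -0.26 and -0.05 (edgeR, adjusted p = 0.393 and 0.865).

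Markers of immune cells were measured beside this list. The summed level of 9 neutrophil markers was 87.5 to 228 CPM in saline tumors and 35.3 to 70.5 CPM in treated tumors, with 1 marker past the thresholds of 7 tested, lower, beside 0.519% of all tested genes. That of 10 T-cell markers was 78.0 to 119 CPM in saline and 35.9 to 66.0 CPM in treated tumors. Of these 10, 3 were past the thresholds, all lower, beside the same 0.519%. Mast cell markers had the lowest median log2 fold change of these lists, -2.37, and a summed level of 30.3 to 190 CPM in saline and 19.2 to 47.0 CPM in treated tumors. In edgeR's test 1 was past the thresholds, lower, beside 0.519% of all tested genes. Unadjusted p was under 0.05 for 6 of 6, all lower, beside 9.79% of all tested genes. The 6 were 4 with limma-voom, with the replicate block, and without mAb-DXd/IMQ tumor 1. The 5 tested B and plasma cell markers had a median of -1.53, and between -1.56 and -0.93 with a tumor left out, with none past the thresholds, and a summed level of 5.58 to 54.8 CPM in saline and 7.50 to 16.01 CPM in treated tumors. The 8 NK and cytotoxic markers had a median of 0.31, with 5 positive and 3 negative and none past the thresholds, and a summed level of 78.5 to 133 CPM in saline and 118 to 161 CPM in treated tumors. Without saline tumor 2 that median was 0.02, with 4 positive and 4 negative. All 10 macrophage markers had a negative log2 fold change, with a median of -0.30. Without saline tumor 2 that median was 0.0047, with 5 positive and 5 negative. Their summed level was 1232 to 6366 CPM in saline and 2492 to 3624 CPM in treated tumors. Of 6 dendritic cell markers, 5 were negative, with a median of -0.87. Their summed level was 83.2 to 103 CPM in saline and 80.8 to 148 CPM in treated tumors. No gene of either list passed the thresholds. None of these markers was at 0 in all tumors, and their part in the levels of the NRF2 target genes was not tested.

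**Figure D5:**
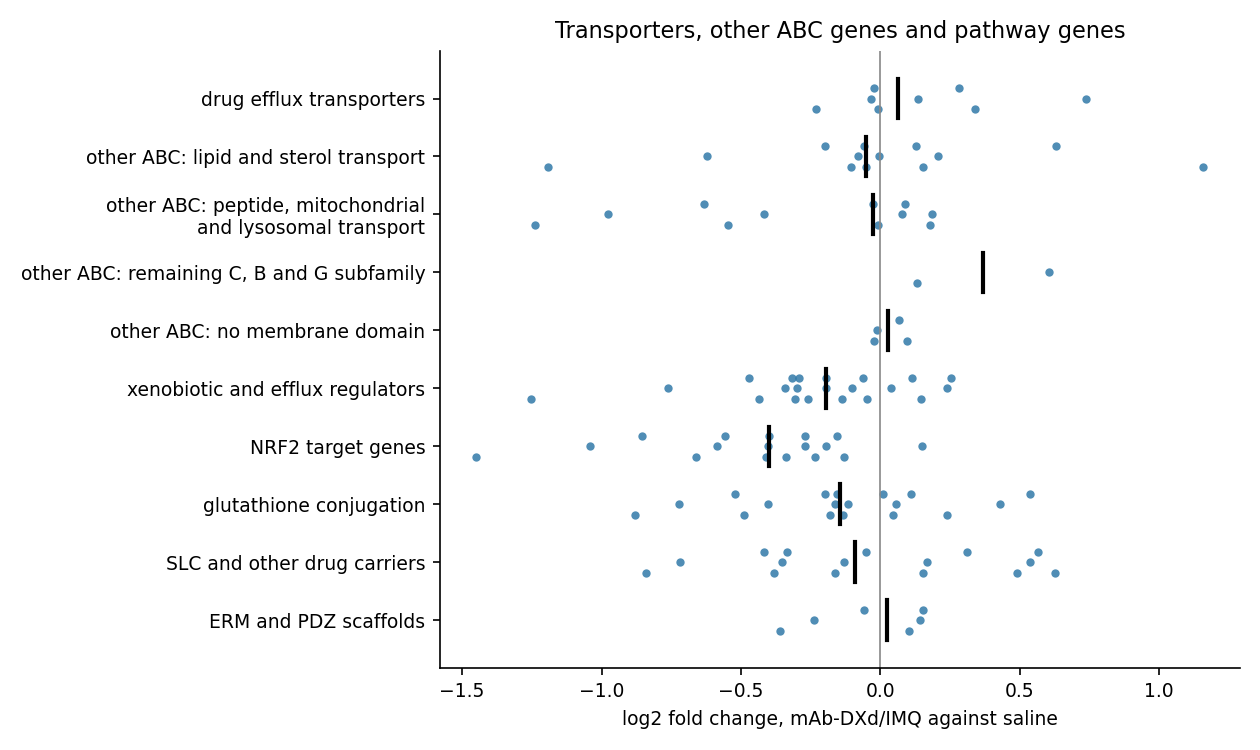
Log2 fold change of mAb-DXd/IMQ against saline tumors for each tested gene (dots) of the transporters, 4 lists of other ABC genes, and 5 pathway lists, with the median of each list (black bar). The NRF2 target genes have the lowest median, -0.40, and the drug efflux transporters a median of 0.06.

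Conjugation with glutathione produces substrates for the MRP pumps. Of 18 tested genes of this list, 7 had a positive and 11 a negative log2 fold change, or 9 each without mAb-DXd/IMQ tumor 3, and none passed the thresholds by edgeR, with an unadjusted p under 0.05 for 5, beside 18.9% of all tested genes, and for 3 without saline tumor 4. Gstt1, a theta class glutathione transferase, was at 3.07 to 5.60 CPM in saline and 2.02 to 2.57 CPM in treated tumors (log2 fold change -0.88, edgeR, adjusted p = 0.0877). Gstm5, of the mu class, was at 5.76 to 9.12 CPM in saline and 3.84 to 5.82 CPM in treated tumors, where mAb-DXd/IMQ tumor 2 stood above the other 3 and just inside the saline range (log2 fold change -0.72, edgeR, adjusted p = 0.117). DESeq2 called both.

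Of the drug uptake and other carriers, 16 of 25 were tested, 7 had a positive and 9 a negative log2 fold change (9 and 7 without saline tumor 2), and none passed the thresholds by edgeR, with 6 at an unadjusted p under 0.05, beside 18.9% of all tested genes. Slco2a1, the prostaglandin transporter, was at 573 to 601 CPM in saline and 401 to 478 CPM in treated tumors, without overlap (log2 fold change -0.42, edgeR, adjusted p = 0.076). Slc19a1, the reduced folate carrier that also takes up antifolate drugs, was at 13.6, 19.7, 17.1, and 16.6 CPM in saline tumors and at 21.5, 22.4, 32.3, and 27.3 CPM in treated tumors. Every treated tumor was above every saline tumor (log2 fold change 0.63, SE 0.17, edgeR, adjusted p = 0.0798), and DESeq2 called it. The carrier Slc22a4 was called lower by DESeq2 (log2 fold change -0.72, adjusted p = 0.0228). DESeq2 called 2.46% of all genes higher and 1.96% lower. Of this list, 7 carriers, among them Slco1b2, had no counts in any tumor.

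Scaffold proteins of the ERM and NHERF families hold efflux pumps at the membrane. Of 8 symbols on this list, 7 matched the table and 6 genes were tested, 3 with a positive and 3 with a negative log2 fold change (1 and 5 without saline tumor 1), and none passed the thresholds by edgeR, with 1 at an unadjusted p under 0.05, beside 18.9% of all tested genes. That count was 0 without saline tumor 1, 3, or 4 or mAb-DXd/IMQ tumor 3 or 4, and 2 without mAb-DXd/IMQ tumor 1. Msn, which encodes moesin, was at 832 to 941 CPM in saline and 673 to 879 CPM in treated tumors (log2 fold change -0.24, edgeR, adjusted p = 0.338). Slc9a3r1, which encodes NHERF1, was at 74.2 to 87.6 CPM in saline tumors and at 80.7, 72.1, 47.8, and 51.7 CPM in treated tumors, so that 1 treated tumor lay inside the saline range (log2 fold change -0.36, edgeR, adjusted p = 0.263).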

How the data were processed

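Poly-T-selected RNA of 8 tumors from 8 mice, 4 per group, was sequenced by a commercial provider on Illumina instruments. The table deposited by the authors holds raw counts of reads per gene, not normalized, and a gene length that equals the summed exons for the 9 members. The submitters' processing notes name HISAT2, HISAT, TopHat2, and mm39, without versions or roles, while 98.3% of the genes matched by identifier have the start and end of GRCm38, which is used here. The counting program and strand setting are not given in the sources used here.

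Counts were filtered by filterByExpr (minimum count 10, minimum total 15), scaled by TMM, and tested by edgeR 4.0.16 (quasi-likelihood F-test, no covariates, Benjamini-Hochberg over 18511 genes, FDR under 0.05 and absolute log2 fold change above 0.58), in R 4.3.3 with limma 3.58.1 and DESeq2 1.42.0. The study names a later edgeR release. SE was approximated from the coefficient and F, and log2 CPM used a prior count of 2. RPKM was computed from TMM-scaled CPM. Alternatives were other scalings, filters, tests, a replicate block, corrections for gene length or length and GC content (splines with 5 degrees of freedom), and each tumor left out. The correction with GC content and the transcript length for RPKM were added after seeing the data. Figures used Python 3.11.15 and matplotlib 3.10.9. No 2 libraries of a group agreed within sampling noise (chi-square per degree of freedom at least 33.7). The steps were tested on simulated data. Of genes simulated with a 1.5-fold change, 13 of 67 were recovered (19.4%). That change lies at the fold limit itself, so genes estimated short of the limit were not called, whatever their p. At 2-fold, 54 of 67 were recovered (80.6%), and at 4-fold 64 of 66 (97%).

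The members, lists, and rules were chosen with earlier results of these data known. Named were all members, per list the genes past the thresholds or else the 2 with the smallest p, and the 3 nearest profiles of the 3 most variable members, among genes averaging at least 1 CPM. The symbol Nherf4 matched no gene. Some genes named by this rule are not reported here.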

Additional observations from a re-analysis of the deposited data

Results flagged for a closer look

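In 104 sets of 4 tumors, the gap of the highest or lowest tumor to its neighbor was divided by the range of the set. In 4 sets this share was above Dixon's 95% critical value for 4 values, beside 5.2 that chance would give at 1 in 20. Abcc1 stood apart in saline tumor 1, at 77.3 CPM against 56.9 to 58.2 CPM in the other saline tumors, a share of 0.934. Abcc2 had counts in a single saline tumor, number 3, at 0.107 CPM against 0, a share of 1. Gstm5 stood apart in mAb-DXd/IMQ tumor 2, at 5.82 CPM against 3.84 to 4.04 CPM, a share of 0.9. The summed dendritic cell markers stood apart in mAb-DXd/IMQ tumor 3, at 148 CPM against 80.8 to 85.9 CPM, a share of 0.924.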

How the results depend on the processing

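With 4 tumors per group, calls near the thresholds were unstable. The 197 genes past the thresholds became 358 without a low-count filter, 787 with DESeq2, 120 after the correction for gene length, and 10 to 203 when 1 tumor was left out. The lowest counts were those without saline tumor 3 (10), saline tumor 4 (11), or mAb-DXd/IMQ tumor 4 (12). Replicate numbers did not pair the tumors (correlations of same-numbered deviations from -0.17 to 0.079), and a replicate block gave 14 genes, 12 with the correction for gene length and 13 with that for length and GC content, an alternative chosen after seeing the data. Members past the thresholds were 0 with the block and numbered 1 with DESeq2, otherwise 0, also in every fit that left out a tumor (0 to 0). Other ABC genes numbered 3 with DESeq2, 1 by FDR alone, and 0 to 1 with a tumor left out. Pathway genes numbered 9 with DESeq2, 3 by FDR alone, and 2 without a filter or with at least 1 CPM in 4 tumors. They numbered 0 with upper quartile scaling, limma-voom, the replicate block, or either correction with the block, and 0 to 2 with a tumor left out. Of all genes, DESeq2 called 4.43% and FDR alone 1.33%. The cause of these shifts was not tested.

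Of 160 member values under alternatives, 136 kept their direction and call, 23 changed sign, and 1 became a call. Abcb1b changed to 0.030 with upper quartile scaling, 0.073 after the length correction (0.071 with the replicate block), and 0.071 after the length and GC correction (0.070 with the block), Abcc3 to 0.0078, 0.027, and 0.0091 with upper quartile scaling and the 2 corrections, and Abcc10 to 0.042 with upper quartile scaling, 0.0033 with at least 1 CPM in 4 tumors, 0.078 after the length correction (0.068 with the block), and 0.041 after the length and GC correction (0.035 with the block). With 1 tumor left out, Abcb1a ran from -0.0055 to 0.25, Abcb1b from -0.14 to 0.11, Abcc3 from -0.22 to 0.15, Abcc10 from -0.11 to 0.11, Abcg3 from -0.30 to 0.56, and Sdr42e1 from -0.26 to 0.15. Sdr42e1, at 0.00030, changed to -0.0038 with RLE scaling, -0.0058 without a filter, -0.0042 with DESeq2, -0.057 with limma-voom, -0.046 with the block, -0.039 after either correction, -0.085 after the length correction with the block, and -0.086 after the length and GC correction with the block.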
